A study of Mus musculus with 4 samples.

Results

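The genes *Sult1e1*, *Rnase12*, *Chrdl2*, *Vcan* and *Ly6e* were followed through the cells of the proximal mouse testis. They are 5 of the 31053 genes counted in each library, and they were chosen by a measured value: their level in rete testis (RT) epithelial cells was higher in both *Sox17*-cKO libraries than in both control libraries. Their difference between the genotypes in RT cells is therefore what picked them, and it is given below as a description, without a test. What the choice did not use is their level in the other cell types, and there the genotypes were compared with a test.

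The RT is the epithelial network that collects sperm and fluid from the seminiferous tubules (ST) and passes them to the efferent ducts, and the Sertoli valve (SV) is the short segment at which each tubule joins it. SOX17 is a transcription factor of the SRY-related family that the RT epithelium and vascular endothelium make. The 5 genes encode proteins of unlike kinds. SULT1E1 is a cytosolic enzyme that adds sulfate to estrogens and so keeps them from their receptor, and in the adult mouse testis it is known from Leydig cells. RNASE12 is a member of the secreted RNase A family, whose genes of this kind are known chiefly from the male reproductive tract. CHRDL2 is a secreted chordin-like protein that binds bone morphogenetic proteins (BMPs), versican (VCAN) is a large chondroitin sulfate proteoglycan of the extracellular matrix, and LY6E is a small protein held on the cell surface by a lipid anchor and inducible by interferon.

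Cells were dissociated from the proximal testis, with RT, SV and neighbouring ST, of C57BL/6 mice at P14 and captured in droplets. Each captured RNA carries a unique molecular identifier (UMI), so a count is a count of molecules. There were 2 control and 2 *Sox17*-cKO libraries, each from 3 pooled pups, so the replicate is the library and pups within one cannot be told apart. *Sox17*-cKO animals carry SF1Cre, a Cre under *Nr5a1* (SF1) control that acts in the somatic gonad lineage, and homozygous floxed *Sox17*. The labels give SF1Cre alone for the controls, while the methods describe floxed littermates.

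On GRCm38, *Sult1e1* lies at chr5:87575969-87591594 on the minus strand next to *Sult1d1*, and *Rnase12* at chr14:51056698-51057661 on the minus strand in the cluster of RNase A genes that also holds *Rnase4* and *Ang*. *Chrdl2* spans chr7:100006172-100034728 on the plus strand, *Vcan* chr13:89655312-89742509 on the minus strand, and *Ly6e* chr15:74955051-74959905 on the plus strand near *Ly6a* and *Ly6i*. No other annotated gene overlaps them, apart from an antisense transcript and a processed pseudogene on the plus strand within *Vcan*.

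RefSeq start-site windows (GRCm38.p6, 250 bases before to 50 after the start, written in the direction of transcription) were matched for 3 of the 5 genes and are shown because these genes were higher together in *Sox17*-cKO RT cells. The windows are chr5:87591562-87591861 for *Sult1e1*, chr14:51057193-51057492 for *Rnase12* and chr13:89742463-89742762 for *Vcan*. Capitals mark any match on either strand to ACAAT (the core of SOX sites), AGGTCA (a nuclear receptor half-site), CCAAT or TATAAA, which do not overlap in these windows.
Sult1e1: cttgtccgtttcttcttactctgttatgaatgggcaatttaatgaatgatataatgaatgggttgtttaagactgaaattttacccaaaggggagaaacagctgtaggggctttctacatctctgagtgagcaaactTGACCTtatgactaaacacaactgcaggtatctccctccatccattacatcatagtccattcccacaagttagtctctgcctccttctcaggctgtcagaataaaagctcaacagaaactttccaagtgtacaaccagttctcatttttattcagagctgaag
Rnase12: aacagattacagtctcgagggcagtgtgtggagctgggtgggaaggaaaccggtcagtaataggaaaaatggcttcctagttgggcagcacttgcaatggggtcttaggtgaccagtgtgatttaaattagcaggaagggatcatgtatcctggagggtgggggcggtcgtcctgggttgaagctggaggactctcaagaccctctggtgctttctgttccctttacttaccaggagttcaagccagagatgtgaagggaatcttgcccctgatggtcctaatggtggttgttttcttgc
Vcan: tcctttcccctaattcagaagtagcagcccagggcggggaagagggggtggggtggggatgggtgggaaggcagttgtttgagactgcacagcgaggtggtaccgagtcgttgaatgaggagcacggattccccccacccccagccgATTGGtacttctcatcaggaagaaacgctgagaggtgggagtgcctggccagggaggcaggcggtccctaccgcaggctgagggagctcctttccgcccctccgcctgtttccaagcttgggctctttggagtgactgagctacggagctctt
None of the 3 windows held ACAAT, which 31.0% of the 32851 windows of that length hold on either strand, nor TATAAA, which 13.6% hold. *Sult1e1* held AGGTCA on the opposite strand, beginning 113 bases before the start (16.3% of all windows hold it), and *Vcan* held CCAAT on the opposite strand, beginning 103 bases before the start (37.4% of all windows). *Rnase12* held none of these letters. The GC content was 40.0% for *Sult1e1*, 51.0% for *Rnase12* and 61.0% for *Vcan*, against a median of 52.7% over all windows. The annotated *Rnase12* gene extends upstream of the start used by RefSeq, so its window lies within the gene. These matches are a description of letters and say nothing of whether a factor binds.

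The 4 libraries held 46001 barcodes with 89969877 to 107203219 UMIs each, of which 22567 barcodes with 1000 to 4500 detected genes were kept. One cluster of 228 cells had the RT markers and is called RT-like. It drew 36 and 73 cells (264400 and 577659 UMIs) from the control libraries and 33 and 86 cells (241710 and 664875 UMIs) from the *Sox17*-cKO libraries. From here on, 4 values in a row stand in the order first control, second control, first *Sox17*-cKO, second *Sox17*-cKO library. All 6 RT markers listed for naming (*Pax8*, *Cdh1*, *Krt8*, *Krt18*, *Krt19*, *Epcam*) were detected in it in every library, with summed levels of 609 and 840 CPM (UMIs of a gene per 1000000 UMIs of the class) in the controls and 703 and 1008 CPM in *Sox17*-cKO. *Pax8*, which encodes a transcription factor of the RT, stood at 310, 428, 215 and 418 CPM. *Epcam*, an adhesion protein of this and other epithelia, the efferent duct included, was higher in both *Sox17*-cKO libraries (22.7, 67.5, 137 and 170 CPM). So were the keratins *Krt8* (94.6, 113, 137 and 185 CPM) and *Krt18* (64.3, 65.8, 82.7 and 70.7 CPM). The keratin *Krt19* was too, at 3.78, 3.46, 4.14 and 10.5 CPM. Of all genes tested 18.0% had this order, and the part of these markers in the results on the 5 genes was not tested. *Chrdl2* is itself among the leading genes of this cluster, although none of the 5 genes was used to build it. The other 9 named classes are given below, 4 clusters stayed unnamed, and no SV Sertoli cluster separated, so SV cells are not described. Each pair of libraries shared 20 to 43 barcodes.

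*Sox17* itself had 94 and 180 UMIs (356 and 312 CPM) in the RT-like cells of control 1 and 2, and 11 and 23 UMIs (45.5 and 34.6 CPM) in those of *Sox17*-cKO 1 and 2. The log2 fold change was −3.14 (SE 0.33), one of 6 genes past an adjusted p of 0.05 among 6799 tested (0.0882%), none of which was higher (0.00%; edgeR quasi-likelihood test, Benjamini-Hochberg adjustment). At an unadjusted p under 0.05 there were 391 genes, and DESeq2 called 17 of 15392 (0.110%), 6 of them higher (0.0390%). The absence of higher calls did not hold in every fit: with a term for the replicate number edgeR called 275 of the 6799 genes (4.04%), of which 134 were higher (1.97%), and without *Sox17*-cKO 1 it called 106, of which 51 were higher. With both *Sox17*-cKO libraries above both controls as the criterion, 1224 of the 6799 genes (18.0%) passed, which is the background for the way the 5 genes were chosen. The part of the *Sox17* transcript that the floxed allele loses is not given in the sources used here, so a remaining UMI does not show an intact transcript.

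**Figure D1:**
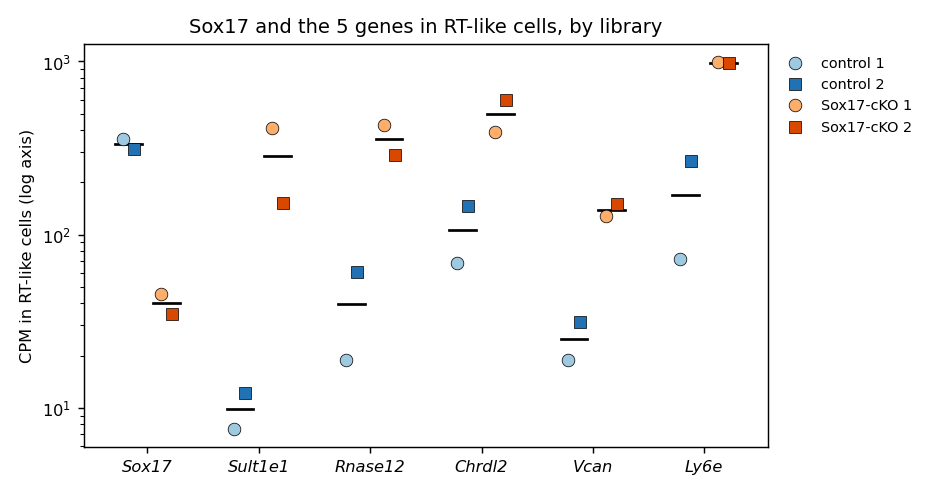
Level of *Sox17* and of the 5 genes in RT-like cells, in CPM on a log axis, with 1 point per library and a line at the mean of each genotype (n = 2 libraries). *Sox17* is at 312 to 356 CPM in controls and 34.6 to 45.5 CPM in *Sox17*-cKO, and for each of the other 5 genes both *Sox17*-cKO points lie above both control points, as the choice of genes requires.

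*Sult1e1* showed the widest gap. It had 2 and 7 UMIs in the RT-like cells of control 1 and 2 and 100 and 101 UMIs in those of *Sox17*-cKO 1 and 2, which is 7.56, 12.1, 414 and 152 CPM. The genotypes did not overlap, and the *Sox17*-cKO libraries differed from each other by more than the controls did. The fitted log2 fold change was 4.63 (SE 0.64), the second highest of the 6799 genes. Within the libraries of replicate 1 the ratio was 54.7 with a 95% counting interval of 14.7 to 458, and within those of replicate 2 it was 12.5 (5.87 to 32.0). These intervals cover counting error alone, and the molecules of a few cells carry the ratio. The labels do not pair same-numbered libraries, which holds for all ratios within a replicate given below.

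Few RT-like cells held *Sult1e1*. It was seen in 1 of 36 cells of control 1 (2.78%, exact Clopper-Pearson 95% interval 0.0703 to 14.5%), 6 of 73 of control 2 (8.22%, 3.08 to 17.04%), 8 of 33 of *Sox17*-cKO 1 (24.2%, 11.1 to 42.3%) and 24 of 86 of *Sox17*-cKO 2 (27.9%, 18.8 to 38.6%). With each cell thinned to 2000 UMIs, which left out 1, 2, 3 and 2 cells, the shares were 0, 1.41, 20 and 17.9%. In *Sox17*-cKO 1, 3 cells carried at least 50% of the molecules, with up to 26 UMIs in a cell, whereas the highest control cell held 2. The gene was thus off or below detection in most RT-like cells of both genotypes and high in a minority of *Sox17*-cKO cells. Its share in Sertoli-like cells was 0 to 0.148% per library. Their median depth was 3719 to 6038 UMIs a cell, against 6543 to 7868 in RT-like cells. Free RNA was not measured by itself.

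Outside the RT-like cells *Sult1e1* was almost confined to the stromal-like class, where the 4 libraries gave 1.81, 11.2, 8.50 and 1.21 CPM. There 27 of 4536 cells held all 202 UMIs, and 14 cells with 5 or more UMIs held 177 of them. These cells came from every library (1, 8, 3 and 2), 13 of them from 1 of the 2 stromal-like clusters, and 4 of them had 20 UMIs or more. The genotypes overlapped in this class, and the test did not separate them (log2 fold change −0.71, SE 1.05, edgeR adjusted p = 0.99998). In 245 Leydig-like cells, the adult source of the enzyme, 1 cell held 2 UMIs.

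*Rnase12* was the gene most restricted to the RT-like class. It had 5, 35, 104 and 191 UMIs there (18.9, 60.6, 430 and 287 CPM). Control 1 was the lowest library and *Sox17*-cKO 1 the highest, and the genotypes did not overlap. The log2 fold change was 2.98 (SE 0.45), rank 8 of 6799, and the log2 ratio was 4.51 within replicate 1 and 2.25 within replicate 2.

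The *Rnase12* molecules were spread over many cells. It was detected in 3 of 36 RT-like cells of control 1 (8.33%, 1.75 to 22.5%), 15 of 73 of control 2 (20.5%, 11.98 to 31.6%), 20 of 33 of *Sox17*-cKO 1 (60.6%, 42.1 to 77.1%) and 57 of 86 of *Sox17*-cKO 2 (66.3%, 55.3 to 76.1%). Thinned in the same way the shares were 2.86, 7.04, 36.7 and 38.1% in the same order of libraries. In *Sox17*-cKO 2, 13 cells were needed to reach 50% of the molecules. Elsewhere 24 of 22339 retained cells had a UMI, only 1 of them more than 1, and of the UMIs of *Rnase12* in retained cells the RT-like class held 62.5 and 92.1% in the controls and 88.9 and 97.0% in *Sox17*-cKO, although it held no more than 1.69% of all UMIs. The gene passed the count filter in no other class.

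*Chrdl2* was an RT gene in controls as well. Its RT-like UMIs numbered 18, 84, 95 and 400 in the 4 libraries, which is 68.1 and 145 CPM in the controls and 393 and 602 CPM in *Sox17*-cKO. The log2 fold change was 2.14 (SE 0.39), rank 22 of 6799 and the smallest of the 5. The within-replicate log2 ratios were 2.53 and 2.05. It was detected in 44.4% (27.9 to 61.9%) and 56.2% (44.1 to 67.8%) of control RT-like cells and in 75.8% (57.7 to 88.9%) and 83.7% (74.2 to 90.8%) of *Sox17*-cKO RT-like cells. After thinning the shares were 14.3, 21.1, 56.7 and 64.3%. No cell held more than 11.6% of the molecules of its library.

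The next class for *Chrdl2* was the spermatogonia-like cells, at 4.71, 5.59, 3.95 and 6.997 CPM. These UMIs came mostly from the larger of its 2 clusters (4.62 to 8.53 CPM), the other being at 0.69 to 1.93 CPM, and an unnamed cluster of 1576 cells had 3.25, 6.37, 3.84 and 6.76 CPM. There 4.45% of 3708 cells had a UMI, against 0.374% of Sertoli-like cells, and at most 1.71 and 0.231% per library after thinning. The *Chrdl2* level of spermatogonia-like cells did not differ between genotypes beyond the spread of the libraries (log2 fold change 0.06, SE 0.46, edgeR adjusted p = 0.9998). All other named classes were at or below a mean of 1.71 CPM.

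Among the named classes *Vcan* was a gene of the connective tissue in controls. Control stromal-like cells had 54.2 and 105 CPM and control myoid-like cells 82.9 and 56.8 CPM, above control RT-like cells with 18.9 and 31.2 CPM. In *Sox17*-cKO the RT-like cells had 128 and 150 CPM, whereas the stromal-like cells had 80.6 and 81.4 CPM and the myoid-like cells 80.2 and 64.1 CPM. The RT-like class thus ranked below both connective tissue classes in controls and above both in *Sox17*-cKO, with no overlap between their library values in either genotype. An unnamed cluster of 182 cells, led by genes of dividing cells, had 93.4, 141, 90.5 and 113 CPM, the highest control mean of any cluster or class. Named after their values were seen, 2 genes of dividing cells were higher in both *Sox17*-cKO libraries of the RT-like cells. These were *Mki67* (37.8, 8.66, 182 and 46.6 CPM) and *Hist1h1b* (11.3, 6.92, 161 and 31.6 CPM). Of all genes 18.0% had this order, and their part in the *Vcan* result was not tested. *Hmmr*, another gene of dividing cells, overlapped between the genotypes (26.5, 3.46, 66.2 and 3.01 CPM). By immunostaining, the paper found a similar share of proliferating RT epithelial cells in both genotypes at the age sampled here.

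In RT-like cells *Vcan* had 5, 18, 31 and 100 UMIs, a log2 fold change of 2.36 (SE 0.37, rank 17 of 6799), and within-replicate log2 ratios of 2.76 and 2.27. It was seen in 8.33% (1.75 to 22.5%) and 13.7% (6.77 to 23.8%) of control RT-like cells and in 39.4% (22.9 to 57.9%) and 48.8% (37.9 to 59.9%) of *Sox17*-cKO RT-like cells. The thinned shares were 5.71, 7.04, 23.3 and 26.2%. Of the shallower Sertoli-like cells, 0.816 to 2.61% per library had a UMI. No *Vcan* test outside the RT passed: the log2 fold changes were −0.05 (SE 0.34) in stromal-like, −0.02 (SE 0.26) in myoid-like, 0.32 (SE 0.62) in Sertoli-like and −0.19 (SE 0.78) in pericyte-like cells. The stromal-like markers summed to 216 and 402 CPM in the RT-like cells of the controls and to 298 and 447 CPM in those of *Sox17*-cKO, 0.717 to 1.09% of their level in stromal-like cells, and their part in the *Vcan* result was not tested. Named after their values were seen, 3 matrix genes were higher in both *Sox17*-cKO libraries of the RT-like cells too. Of all genes 18.0% had this order. *Lamc3*, a laminin chain and a leading gene of the myoid-like cluster, had 0, 5.19, 37.2 and 24.1 CPM. The collagen gene *Col11a1* had 11.3, 8.66, 45.5 and 64.7 CPM, and *Ogn*, a small proteoglycan, 11.3, 12.1, 86.9 and 37.6 CPM. On the stromal-like list *Pdgfra* had this order (129, 113, 236 and 236 CPM). The collagen genes *Col1a1* (15.1, 133, 8.27 and 61.7 CPM) and *Col3a1* (11.3, 98.7, 20.7 and 43.6 CPM) of that list overlapped. The myoid-like markers summed to 37.8, 280, 66.2 and 101 CPM in RT-like cells, highest in control 2.

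*Ly6e* was the most abundant of the 5 and the most widely expressed. RT-like cells held 19, 154, 239 and 649 UMIs in the 4 libraries (71.9, 267, 989 and 976 CPM). The *Sox17*-cKO libraries were nearly equal, and the controls lay apart from each other by more than the SE of the fold change, with control 1 well under control 2. The log2 fold change was 2.45 (SE 0.50, rank 13 of 6799), 3.78 within replicate 1 and 1.87 within replicate 2.

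Endothelial-like cells had 723, 982, 902 and 1308 CPM of *Ly6e* and macrophage-like cells 470, 906, 569 and 817 CPM, in both of which the genotypes overlapped. Control RT-like cells were at the level of Sertoli-like cells (126 and 152 CPM in controls, overlapping) and *Sox17*-cKO RT-like cells at that of endothelial-like cells (overlapping). In Sertoli-like cells both *Sox17*-cKO libraries, at 157 to 229 CPM, lay above both controls. The test did not separate the genotypes there (log2 fold change 0.34, SE 0.31, edgeR adjusted p = 0.99998). The share of all genes with that order in Sertoli-like cells was not counted. Macrophage-defining *Csf1r*, *Adgre1*, *Lyz2* and *Ptprc* had no UMI in the RT-like cells of any library, while *Cd68* had 0, 4, 1 and 5 UMIs and *C1qa* 0, 0, 0 and 1. The endothelial list rested there on *Kdr* (278 to 492 CPM), with at most 2 UMIs a library for each of the other 5 markers. Among the named classes the lowest levels were those of spermatogonia-like cells (6.99 to 11.99 CPM), spermatocyte-like cells (8.98 to 24.95 CPM) and pericyte-like cells. The last had 3.47, 9.81, 9.78 and 44.7 CPM on 1, 8, 5 and 17 UMIs and did not pass the count filter.

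*Ly6e* was detected in 30.6% (16.3 to 48.1%) and 49.3% (37.4 to 61.3%) of control RT-like cells and in 81.8% (64.5 to 93.0%) and 87.2% (78.3 to 93.4%) of *Sox17*-cKO RT-like cells, against 5.98 to 10.9% of spermatogonia-like cells (median 9246 to 11014 UMIs). After thinning the RT-like shares were 14.3, 26.8, 56.7 and 67.9%. It passed the count filter in 8 other classes, with a log2 fold change above 0 in 7 of them (−0.02 in macrophage-like to 0.80 in Leydig-like cells, SE 0.28 to 0.54). The smallest adjusted p of these edgeR fits was 0.9995, in macrophage-like cells. In Leydig-like cells the libraries had 40.3, 147, 129 and 257 CPM, so the genotypes overlapped. Within same-numbered libraries, which the labels do not pair, the log2 ratios there were 1.69 and 0.80. Both ratios were above 0 in endothelial-like, Sertoli-like, stromal-like and myoid-like cells too (0.22 to 0.59). In macrophage-like, spermatogonia-like and spermatocyte-like cells 1 ratio was below 0 (−0.15, −0.06 and −0.07).

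**Figure D2:**
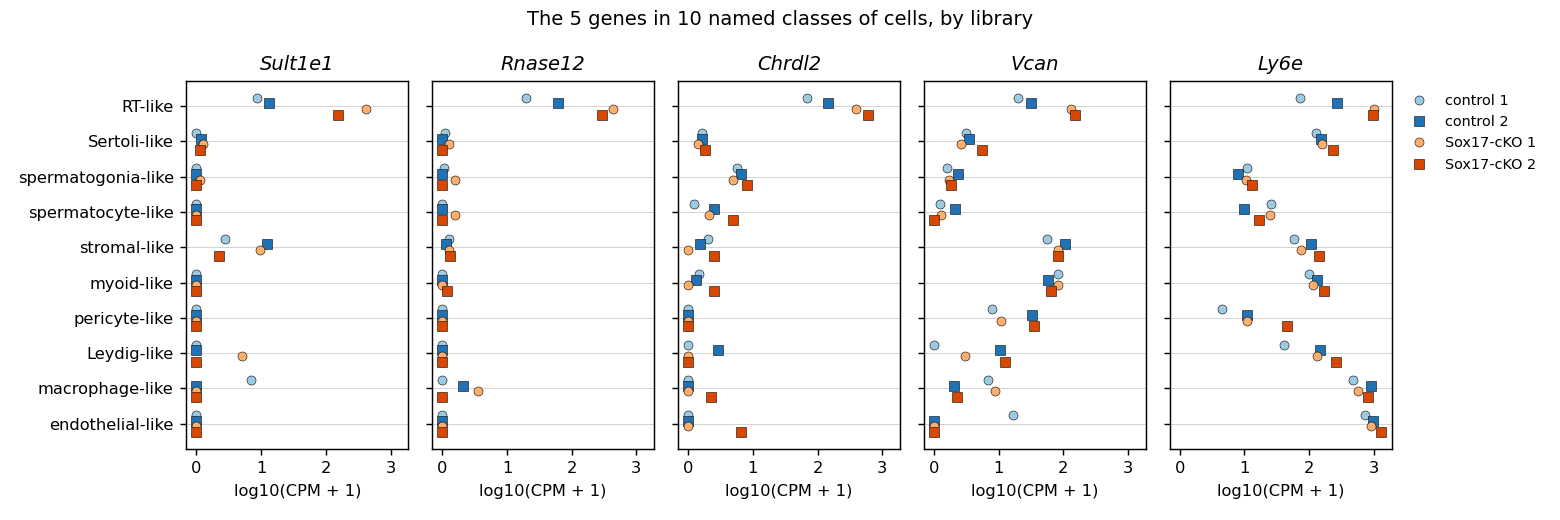
Level of each gene in 10 named classes as log10(CPM + 1), with 1 point per library. *Rnase12* and *Chrdl2* stand above the other classes in RT-like cells of all 4 libraries, *Sult1e1* also appears in stromal-like cells (1.21 to 11.2 CPM), *Vcan* is shared with stromal-like and myoid-like cells, and *Ly6e* is highest in endothelial-like and macrophage-like cells and in *Sox17*-cKO RT-like cells.

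Over the 9 other classes, 14 combinations of gene and class could be tested, and 0 passed (edgeR quasi-likelihood test, smallest unadjusted p = 0.11). In each of those classes edgeR called 0 genes of 2725 to 12850 tested (0.00%), with 5 to 96 genes at an unadjusted p under 0.05, and DESeq2 called 1 gene in stromal-like cells and none in the rest. The difference between the change in RT-like cells and that in another class was not tested, because the RT-like change chose the genes. The SE of these fits, 0.26 to 1.05, leaves room for moderate changes.

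**Figure D3:**
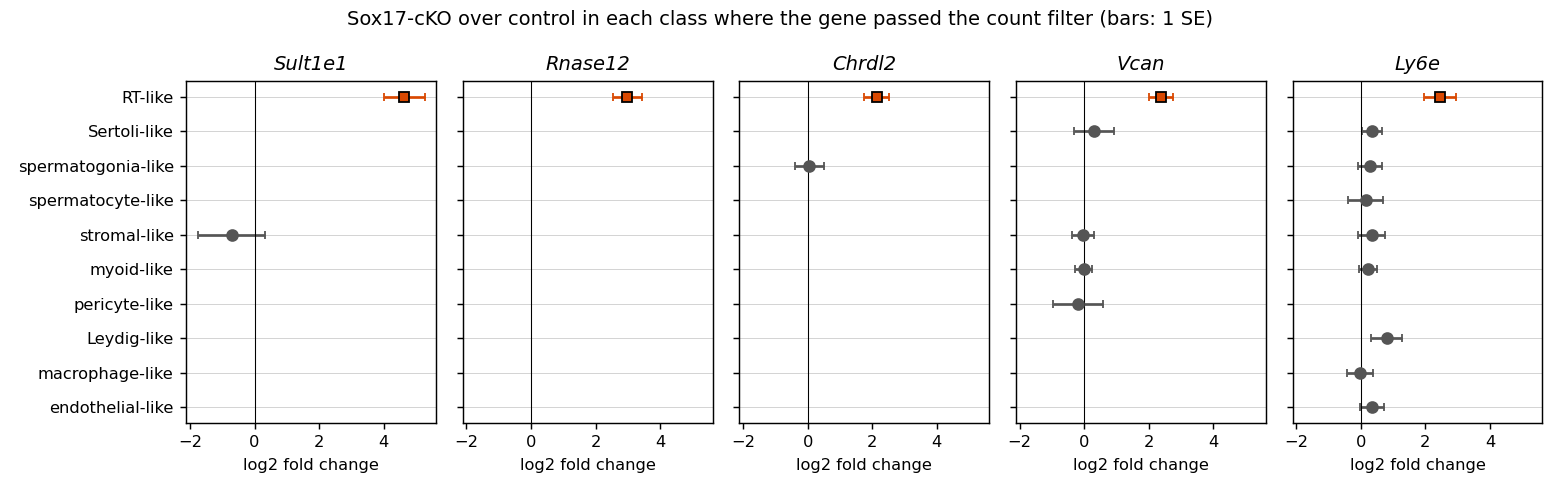
Log2 fold change of *Sox17*-cKO over control, with bars of 1 SE, in each class in which the gene passed the count filter. The RT-like values (squares) lie between 2.14 and 4.63 and were used in choosing the genes, and the values in other classes (circles) lie between −0.71 and 0.80.

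More of the 5 genes were detected per RT-like cell in *Sox17*-cKO than in controls, which largely follows from how they were chosen. The median RT-like cell held UMIs of 1 of the 5 in each control library and of 3 in each *Sox17*-cKO library. At least 3 of the 5 were seen in 2.78 and 20.5% of control cells and in 66.7 and 69.8% of *Sox17*-cKO cells, and none was seen in 41.7 and 26.0% of control cells and in 15.2 and 2.33% of *Sox17*-cKO cells. All 5 were seen in 1 and 1 control cells and in 3 and 8 *Sox17*-cKO cells (9.09 and 9.30%). Whether the genes shared cells more often than their single rates of detection give was not tested. Thinned to 2000 UMIs, at least 3 were seen in 0 and 2.82% of 35 and 71 control cells and in 33.3 and 34.5% of 30 and 84 *Sox17*-cKO cells. Median depth was 7129, 7806, 6543 and 7868 UMIs, so the shallowest library was a *Sox17*-cKO one.

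**Figure D4:**
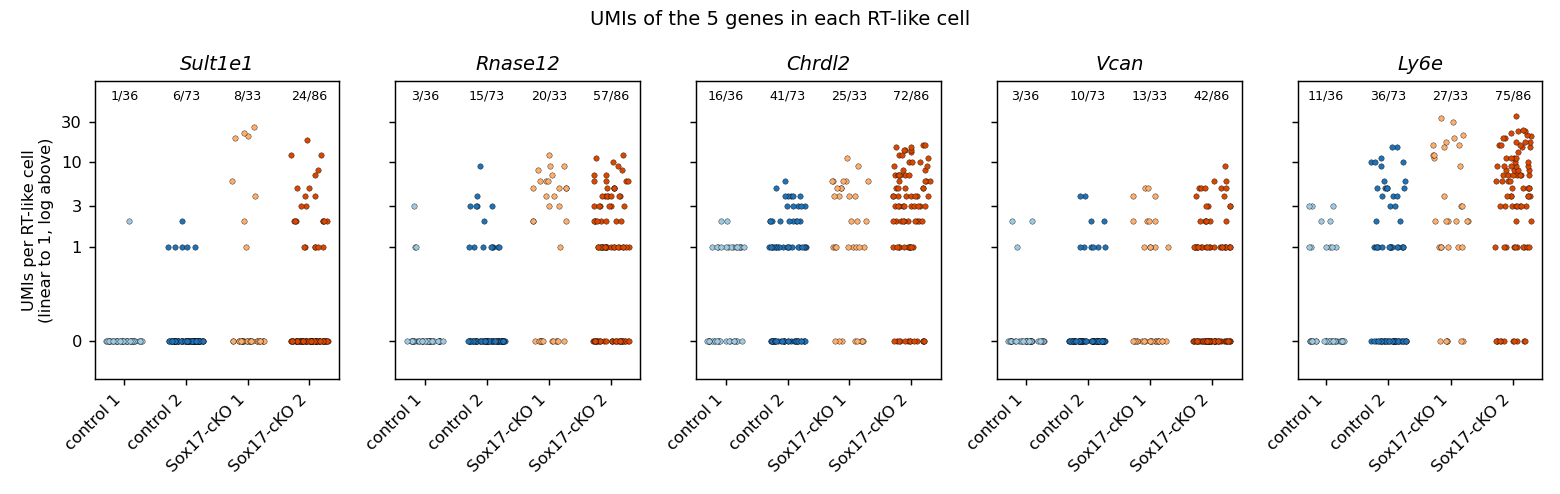
UMIs of each gene in every RT-like cell, by library, on an axis that is linear to 1 and logarithmic above, with the number of cells that hold a UMI over the number of cells. *Ly6e* and *Chrdl2* are present in most *Sox17*-cKO cells (75 of 86 and 72 of 86 in *Sox17*-cKO 2), and *Sult1e1* in a minority (24 of 86) that reaches 18 UMIs a cell there.

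Within *Sox17*-cKO the genes were not limited to the cells in which no *Sox17* was counted. In *Sox17*-cKO 2 the 20 RT-like cells with a *Sox17* UMI had 902 CPM of *Ly6e*, 711 CPM of *Chrdl2* and 370 CPM of *Rnase12*, and the 66 without had 1003, 561 and 257 CPM. In *Sox17*-cKO 1 the 9 cells with a UMI and the 24 without had 1096 and 943 CPM of *Ly6e*, 370 and 403 CPM of *Chrdl2* and 520 and 391 CPM of *Rnase12*. *Sult1e1* was higher in cells without a *Sox17* UMI in both libraries, at 557 against 82.2 CPM in *Sox17*-cKO 1 and 171 against 101 CPM in *Sox17*-cKO 2, on as few as 6 UMIs. The shares of cells with a *Sult1e1* UMI were close, at 25 and 22.2% in *Sox17*-cKO 1 and 28.8 and 25% in *Sox17*-cKO 2 without and with a *Sox17* UMI, and 3 cells carried at least 50% of the molecules of *Sox17*-cKO 1. *Vcan* went in opposite directions, at 113 without and 164 CPM with in *Sox17*-cKO 1 and 162 without and 118 CPM with in *Sox17*-cKO 2. With so few *Sox17* molecules a cell, absence of a UMI is no measure of recombination. In the larger RT barcodes described next, *Sult1e1* had the reverse order in both *Sox17*-cKO libraries. It was at 41.9 CPM with and 23.1 CPM without a *Sox17* UMI in *Sox17*-cKO 1, on 11 and 4 UMIs. In *Sox17*-cKO 2 it was at 70.6 CPM with and 56.5 CPM without.

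The limit of 4500 genes a cell set aside larger barcodes, and 272 of these carried RT markers (at least 2 *Pax8* UMIs and 1 of *Cdh1* or *Krt8*): 34, 134, 10 and 94 in the 4 libraries, with a median of 38892 to 43073 UMIs. Doublets were not removed from them. *Rnase12* stood at 27.4 and 72.2 CPM in the controls and 533 and 222 CPM in *Sox17*-cKO, and *Ly6e* at 148 and 267 CPM in the controls and 1198 and 1025 CPM in *Sox17*-cKO. *Vcan* had 26.6, 39.6, 124 and 129 CPM and *Chrdl2* 96.7, 176, 434 and 714 CPM in the same order. For each of these 4 genes, and for *Sult1e1* below, the genotypes did not overlap. These barcodes come from the same 4 libraries whose RT values chose the genes, so this is no repeat of the difference. The share of all genes without overlap in these barcodes was not counted.

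For *Sult1e1* the larger barcodes differed from the retained cells. It had 12.1 and 12.9 CPM in the larger control barcodes and 34.4 and 65.7 CPM in the larger *Sox17*-cKO ones, against 414 and 152 CPM in the retained *Sox17*-cKO cells. Its fitted log2 fold change there was 2.11 (SE 0.35), compared with 4.63 in the retained cells, while the share of barcodes with a UMI was higher (50 and 47.9% in *Sox17*-cKO, 8.82 and 11.9% in controls). In *Sox17*-cKO 1 the larger set was 10 barcodes with 15 UMIs of the gene.

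**Figure D5:**
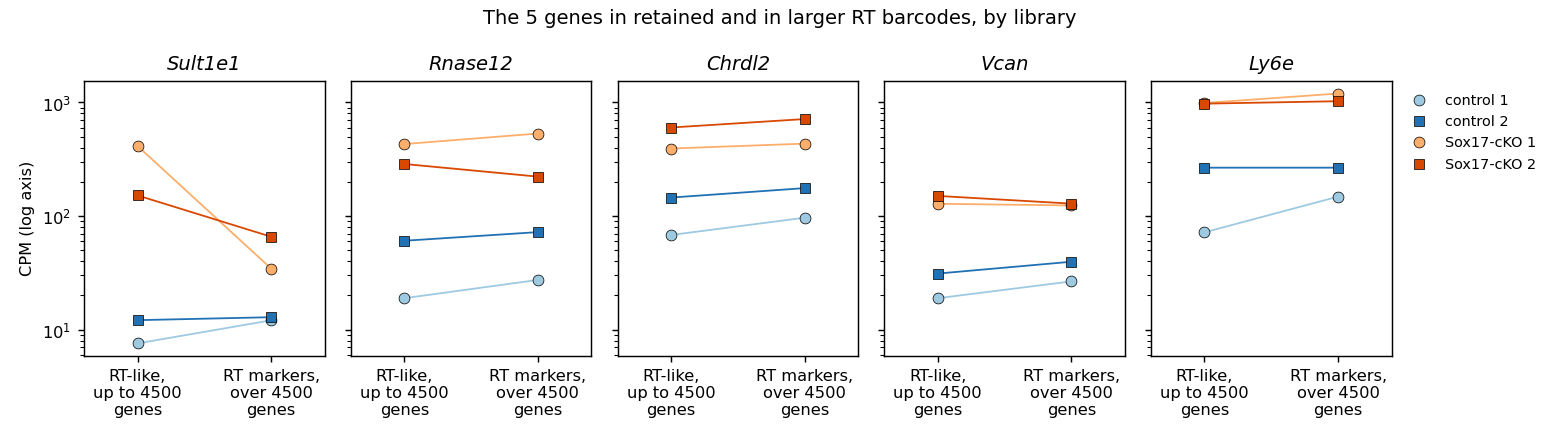
Level of each gene in RT-like cells with up to 4500 detected genes and in barcodes with RT markers and over 4500, in CPM on a log axis, with a line joining the values of each library. Each gene lies higher in both *Sox17*-cKO libraries than in both controls in either set. *Sult1e1* in *Sox17*-cKO is lower in the larger barcodes (34.4 and 65.7 CPM against 414 and 152 CPM).

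The other genes of the same pathways were read in RT-like cells from lists that leave the 5 genes out. Of 45 list genes tested in edgeR, 0 passed an adjusted p of 0.05, while 4 stood below 0.05 before adjustment. In DESeq2, 0 of 116 list genes passed. With a term for the replicate number, which also separates the Cell Ranger versions 6.0.2 and 6.1.2, 6 passed in edgeR (*B2m*, *Ifitm2* and *Ifitm3* higher, *Adamts5*, *Id1* and *Nbl1* lower), beside 275 of all 6799 genes (4.04%) in that fit. Among the sulfotransferase and estrogen genes, 6 of 25 were tested, with a median log2 fold change of 0.16 against −0.0025 over all 6799 genes. *Greb1*, an estrogen-induced gene, had 117, 135, 132 and 185 CPM, and *Papss1*, which makes the sulfate donor, 68.1, 100.4, 86.9 and 91.7 CPM. Named after its values were seen, the estrogen receptor gene *Esr1* had 15.1, 12.1, 0 and 1.504 CPM. It did not pass the count filter, and 15.4% of all genes were lower in both *Sox17*-cKO libraries. *Sult1d1*, the neighbour of *Sult1e1*, had no UMI in 3 libraries and 1.504 CPM in *Sox17*-cKO 2.

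Of 20 other genes of the RNase A list, the inhibitor included, 3 were tested, all with a positive log2 fold change (median 0.90, none past the threshold). *Rnase4* had 34.0, 26.0, 70.3 and 46.6 CPM, with the genotypes apart as in 18.0% of all genes, and *Rnh1*, the ribonuclease inhibitor, 113, 123, 116 and 129 CPM. *Rnase9* and *Rnase11*, which lie in the same cluster as *Rnase12*, had no UMI in any library.

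The interferon list had 7 tested genes of 25, 6 with a positive log2 fold change and a median of 0.70, and 0 past the threshold. *Ifitm2*, an interferon-induced membrane protein, had 427, 705, 848 and 1036 CPM (log2 fold change 0.70, SE 0.32, edgeR adjusted p = 0.90), and *Ifitm3* 238, 365, 633 and 424 CPM (0.75, SE 0.34, edgeR adjusted p = 0.87). Both passed with the term for the replicate number. For both the genotypes did not overlap, as they did not for 18.0% of all genes in that direction. Of the Ly6 family, 5 of 32 were tested, with a median of −0.14. *Ly6a*, a neighbour of *Ly6e* picked after its values were seen, had 3.78, 1.73, 16.5 and 18.0 CPM. It did not pass the count filter, and 18.0% of all genes were likewise higher in both *Sox17*-cKO libraries. *Cd59a*, a complement inhibitor, had 37.8, 67.5, 53.8 and 49.6 CPM and *Tex101*, a germ cell surface protein, 56.7, 8.66, 62.1 and 25.6 CPM, both overlapping.

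The versican list had 7 tested genes of 29 (median 0.21). The proteases *Adamts1* (178, 137, 248 and 146 CPM) and *Adamts9* (94.6, 67.5, 103 and 87.2 CPM), which can cleave versican, overlapped between genotypes. Named after their values were seen, *Adamts5*, another such protease, had 30.3, 32.9, 0 and 10.5 CPM (−2.12, SE 0.76, edgeR adjusted p = 0.70), and *Cd44*, a receptor for hyaluronan, 15.1, 19.0, 49.6 and 42.1 CPM (1.30, SE 0.45, edgeR adjusted p = 0.67), both without overlap, as were 15.4% of all genes in the lower and 18.0% in the higher direction. The BMP list had 17 tested genes of 36, 6 of them with a positive log2 fold change (median −0.26). The BMP targets *Id2* (696, 833, 993 and 1033 CPM, log2 fold change 0.37, SE 0.28, edgeR adjusted p = 0.997) and *Id3* (726, 495, 463 and 492 CPM) did not pass. *Id1*, named after its values were seen, had 431, 104, 149 and 82.7 CPM (−1.27, SE 0.63, edgeR adjusted p = 0.93), and it passed, lower, with the replicate term, without *Sox17*-cKO 1 and without control 2. Also named after their values were seen, *Chrdl1*, a chordin-like relative of *Chrdl2*, had 7.56, 19.0, 62.1 and 34.6 CPM (1.54, SE 0.56, edgeR adjusted p = 0.71), and *Nbl1*, another secreted BMP antagonist, had 416, 580, 157 and 212 CPM (−1.45, SE 0.31, edgeR adjusted p = 0.22).

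Genes with a like pattern were sought by the correlation of log2(CPM + 1) over 40 profiles (10 classes in 4 libraries), given as a description because profiles of a library share its depth and RT-like profiles weigh heavily. *Rnase12* was most like *Tmem171*, *Mal2* and *Eddm3b* (r = 0.97 for each), and *Chrdl2* like *Dsg2* (0.93), *Tmem171* (0.93) and *Barx2* (0.93). *Sult1e1* was most like *Upk3b* (0.87), *Cnmd* (0.86) and *Rnase12* (0.86). *Vcan* was most like *Islr* (0.88), *Bdh2* (0.87) and *Adamts15* (0.87), and *Ly6e* like *St3gal6* (0.87), *Ppp3ca* (0.84) and *Itpr2* (0.84). Between members, *Rnase12* and *Chrdl2* were at 0.90, whereas *Vcan* and *Ly6e* were at 0.16.

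Markers of other cells were measured in the RT-like cells of each library. Sertoli-like markers summed to 4270, 3107, 4319 and 3823 CPM, 13.8 to 17.4% of their level in Sertoli-like cells, with 11 of 12 detected and *Amh* at 0 in every library, and spermatogonia-like markers to 397 to 488 CPM. Of 12 genes listed for efferent duct or epididymis epithelium, 3 to 5 were detected a library, and *Adam28*, *Adam7*, *Slc9a3*, *Lrp2*, *Crisp1* and *Spint4* had no UMI in any. Not on that list, 3 genes named after their values were seen were higher in both *Sox17*-cKO libraries of the RT-like cells. Of all genes 18.0% had this order. *Aqp1*, a water channel of efferent duct epithelium and endothelium, had 0, 1.73, 57.9 and 30.1 CPM (rank 1 of 6799). *Eppin* and *Wfdc2*, known from epididymis epithelium, had 11.3, 6.92, 78.6 and 82.7 CPM (rank 5) and 60.5, 86.6, 918 and 378 CPM (rank 6). *Foxj1*, a transcription factor of ciliated cells that is on the list, had 148, 64.1, 70.3 and 66.2 CPM. The summed level of that list was 382 and 431 CPM in the controls and 1001 and 745 CPM in *Sox17*-cKO. *Lcn2*, itself a leading gene of the RT-like cluster, made up 227, 357, 923 and 671 CPM of these sums. The part of these genes in the results on the 5 genes was not tested. The median share of mitochondrial UMIs in RT-like cells was 7.03, 6.77, 5.08 and 7.09% in the 4 libraries.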

How the data were processed

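Barcodes by genes matrices of 2 control and 2 *Sox17*-cKO libraries were read. The authors aligned the reads with Cell Ranger to mm10 (STAR and GRCm38 are also named in the submitters' processing notes) and deposited whole UMI counts, not normalized; the file headers give Cell Ranger 6.0.2 for the replicate 1 libraries and 6.1.2 for the replicate 2 libraries. Cells with 1000 to 4500 genes were kept. The study's limit of 1% mitochondrial UMIs left 212 cells and was not applied. Integration over libraries and clustering used Seurat 5.3.0 under R 4.3.3 (2000 variable features without the genes reported here, 20 principal components, resolution 0.4). Clusters were named by mean marker scores, with a lead of 0.3 over the next name and a median mitochondrial share under 20%, a rule set after the clusters were seen. Scrublet (Scanpy 1.11.5) called no doublet in 2 libraries, so no call was used.

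UMIs were summed per library and class. CPM used all UMIs of the class, and fold changes used edgeR 4.0.16 (TMM, filterByExpr, quasi-likelihood test, Benjamini-Hochberg over all genes tested, 2 libraries against 2, classes with at least 5 cells in each library), tested on simulated data. Smallest RT-like depth was 241710 UMIs, at which 1 UMI is 4.14 CPM. A count of 0 allows 3 counts. Shares have exact 95% binomial intervals, and intervals cover counting error only. Cells were thinned to 2000 UMIs by seeded sampling. Pups were pooled, so p-values measure the spread between libraries.

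The 5 genes and all gene lists were chosen with earlier results of these data known. Named genes were the 5 in every class, *Sox17* in RT-like cells, list genes past the threshold and the 2 most abundant of each list, and the 3 genes most alike to each member with a mean of at least 20 CPM in a class. Alternatives were each library left out, DESeq2 1.42.0, no count filter, the replicate block, no integration, resolution 0.8, removal of the top 8% of doublet scores, a limit of 10% mitochondrial UMIs, and RT cells chosen by markers. Added after the data were seen were barcodes over 4500 genes and removal of the top cell. The tables pooling all libraries were not used here.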

Additional observations from a re-analysis of the deposited data

How the results depend on the processing

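For the 5 genes in RT-like cells, no alternative turned the direction, which the choice of the genes on these libraries largely fixes. Leaving out each library in turn moved the log2 fold change to between 3.78 and 5.22 for *Sult1e1* (lowest without *Sox17*-cKO 1), 2.54 and 4.18 for *Rnase12*, 2.15 and 2.84 for *Vcan*, 1.87 and 3.74 for *Ly6e* and 1.77 and 2.84 for *Chrdl2*. For the last 4 the highest value came without control 2, and for *Ly6e* the lowest came without control 1. With barcodes over 4500 genes *Sult1e1* was at 2.11 and *Vcan* at 1.89. As a ratio of mean CPM, and without the RT-like cell richest in the gene in each library, *Sult1e1* went from 4.84 to 5.66 (control 1 then at 0) and *Rnase12* from 3.17 to 3.65. With RT cells chosen by markers (153 cells, 147 shared), the mean in *Sox17*-cKO was 112 CPM for *Vcan* and 942 CPM for *Ly6e*, against 139 and 982 CPM.

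Of the 45 list genes tested in the reported fit, 0 passed. Without the count filter, 1 of 116 passed (*Nbl1*, lower). The labels do not tie same-numbered libraries to one litter or day. With the replicate block, 6 list genes passed (*B2m*, *Ifitm2* and *Ifitm3* higher, *Adamts5*, *Id1* and *Nbl1* lower). The deviations of same-numbered libraries correlated at 0.36 over 6799 genes, with 2 pairs. Over all genes in RT-like cells the 6 calls became 275 with the block, 11 to 106 with a library left out, 17 with DESeq2, 99 without the filter, 16 under 10% mitochondrial UMIs and 4 both without integration and without the highest doublet scores, and 26 in barcodes over 4500 genes. The cause was not tested. In the 9 other classes, 0 calls over all genes became 0 to 19 with the block, 0 to 27 with a library left out and 0 to 10 without the filter. There, 0 of 193 values of the 5 genes under the alternatives, the block among them, passed (smallest adjusted p = 0.42, edgeR or DESeq2). Of the 137 that belong to the 14 combinations of gene and class tested in the reported fit, 22 had another sign than there. With 2 libraries a genotype and 33 RT-like cells in the smallest, modest differences could not be seen at this depth.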

Other observations

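The 14 stromal-like cells with 5 or more *Sult1e1* UMIs had, as a pool, higher levels of other genes, and how many of the cells held each gene was not counted. Chosen after the values were seen and given without a test, genes higher there than in the other 4522 stromal-like cells, besides *Sult1e1* itself (1240 against 0.809 CPM), included *Mfap5* (1653 against 226 CPM), *Clec3b* (1394 against 92.7 CPM), *Dpt* (1324 against 106 CPM), *C3* (266 against 6.83 CPM), *Fbln2* (280 against 10.1 CPM) and *Cxcl2* (189 against 1.39 CPM). *Mfap5*, *Dpt* and *Fbln2* encode extracellular matrix proteins, and *C3* the central complement component. *Ly6a*, a neighbour of *Ly6e* on the chromosome, was at 259 against 12.3 CPM in these cells. They came from all 4 libraries and both genotypes, and 8 of them from control 2.

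In control 2, RT-like cells without a *Sox17* UMI had higher values of all 5 genes than cells with one. *Ly6e* was at 462 CPM in the 34 cells without and at 134 CPM in the 39 cells with, *Rnase12* at 85.6 and 43.6 CPM, *Vcan* at 55.6 and 14.5 CPM, *Chrdl2* at 193 and 113 CPM, and *Sult1e1* at 21.4 and 5.81 CPM on 5 and 2 UMIs. In control 1, with 10 cells without and 26 with, *Ly6e* was at 77.4 and 70.5 CPM and *Chrdl2* at 58.0 and 70.5 CPM, *Vcan* at 38.7 and 14.1 CPM on 2 and 3 UMIs, and *Rnase12* and *Sult1e1* had no UMI in the 10 cells without. In the barcodes of control 2 with RT markers and over 4500 genes, 113 had a *Sox17* UMI and 21 did not. There *Ly6e* (270 with and 235 CPM without), *Rnase12* (76.3 and 37.0 CPM), *Chrdl2* (181 and 137 CPM) and *Sult1e1* (13.6 and 6.43 CPM) had the reverse order. Only *Vcan* kept it (37.9 with and 54.7 CPM without). These are cells of 1 library each and were not tested.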
